A study of Mus musculus with 2 samples.

Results

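Angiopoietin, apelin and VEGF signalling was followed through 10 genes chosen by name: the ligands Angpt1, Angpt2, Apln and Vegfa, the receptors Tek, Tie1, Aplnr, Kdr and Flt1, and the secreted endothelial proteoglycan Esm1. Of these 10 genes, 9 had a row among the 24377 genes of the liver table, and Aplnr, the apelin receptor, was not analysed here. A summed count of at least 20 over both libraries was reached by 8 of them, all but Angpt1. Livers came from male C57BL/6J mice (C57BL/6 in the labels, 9 to 11 weeks old) that had been fasted for 10 h, had received 300 mg/kg acetaminophen (APAP) i.p., a dose that injures the liver, and were analysed 30 h later. One group had additionally received AZD7986, an inhibitor of the protease cathepsin C, at 5 mg/kg p.o. in 4 administrations (12 h before APAP, together with APAP, and 12 h and 24 h after it). The other group had received the vehicle of AZD7986 in its place. RNA from 8 mice per group was pooled at equal shares and each pool was sequenced as 1 library, so that there are no replicates and no test of the treatment. Both groups carry the APAP injury, and livers without APAP were not part of the comparison.

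Angiopoietins act on the endothelial receptor tyrosine kinase Tie2, which is encoded by Tek. Angiopoietin-1 activates this receptor and quiets the vessel wall, whereas angiopoietin-2 is released by activated endothelium and can oppose that signal. VEGF-A drives endothelial growth through VEGF receptor 2, encoded by Kdr, while VEGF receptor 1, encoded by Flt1, binds the ligand tightly and can act as a decoy. Apelin and Esm1 are made by endothelial cells at the front of growing sprouts. In liver, hepatocytes are a main source of Vegfa, and the sinusoidal endothelium bears its receptors.

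The vehicle library held 7657855 counts and the AZD7986 library 6700838, after removal of duplicates by molecular identifiers. Counts were divided by a size factor per library (1.10 for the vehicle pool and 0.910 for the AZD7986 pool), which gives normalized counts. Ratios divide the normalized count under AZD7986 by that under vehicle, and the brackets after a ratio hold the exact 95% interval of the split of the summed count. These intervals cover counting error only, and not the variation between mice. A gene was counted as lower where its ratio was at most 0.5 and its interval lay below 1, and as higher where its ratio was at least 2 and its interval lay above 1. Reads come from the 3′ ends of transcripts, so counts do not scale with transcript length, and no levels are compared between genes. Albumin, the most abundant product of hepatocytes, was counted 267058 and 217749 times under vehicle and AZD7986 (Alb ratio 0.984), so the labelled tissue carries its defining marker.

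Among the 9 genes, 3 were lower and 0 were higher in the AZD7986 pool. The 3 lower genes were Apln, Angpt2 and Esm1, 2 ligands and a proteoglycan of activated or sprouting endothelium. Receptors and the ligand Vegfa lay closer to 1. By the same rules 2.88% of the 13523 genes that reached a sum of 20 were lower and 1.83% were higher, and by the ratio alone 3.73% were at or below 0.5 and 2.22% at or above 2. Bulk liver RNA cannot tell fewer cells of a type from less RNA per cell, which holds for each value of an endothelial gene here. The median log2 ratio of the 8 genes with enough counts was -0.58, beside -0.02 over all 13523 genes. The chosen genes were picked with earlier results of these data known, so setting them beside all genes is descriptive only. Angpt2 was picked out by the study itself partly on these libraries and partly by realtime PCR in individual mice. Its direction in these libraries is therefore no independent evidence.

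**Figure D1:**
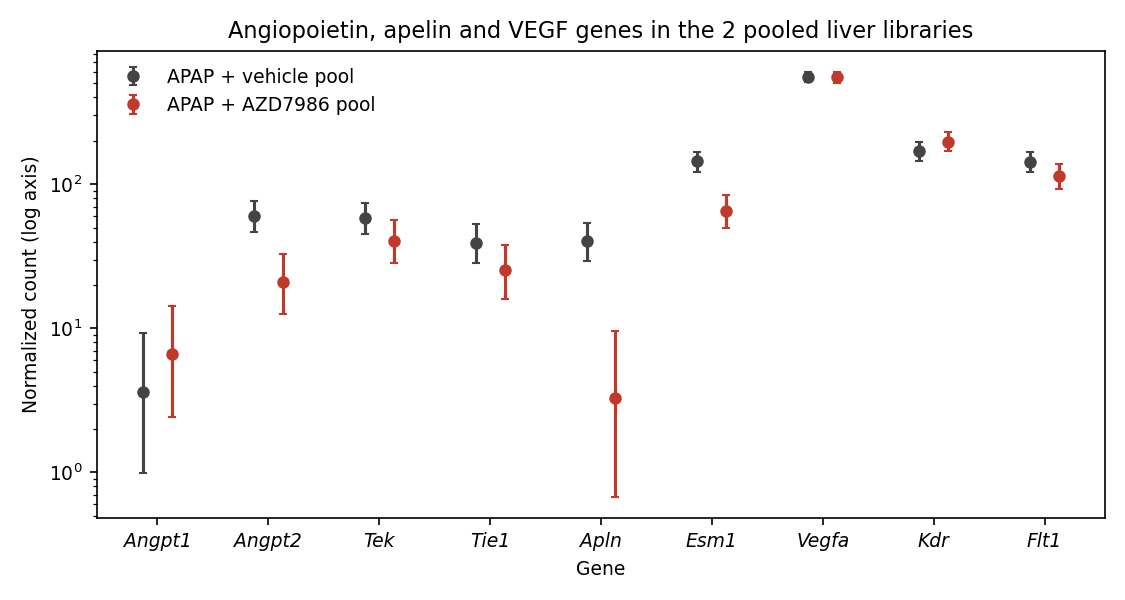
Normalized counts (log axis) of the 9 genes in the vehicle pool (grey) and the AZD7986 pool (red), 1 library each, where bars are exact 95% Poisson intervals of the count. The bars of both pools do not overlap for Angpt2, Apln and Esm1, and they overlap for the other 6 genes.

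Apln, which encodes the precursor of the peptide apelin, was counted 44 times under vehicle and 3 times under AZD7986. In normalized counts these are 40.1 [29.1, 53.8] and 3.30 [0.680, 9.63], so that the Poisson intervals of the pools did not overlap. The ratio was 0.0823 [0.0163, 0.257]. Of 13523 genes 3, Apln and Mmp9 included, had a ratio this low or lower. Counting error spreads ratios more where counts are low, and no rank given here was taken among genes of similar count. Whether Apln stands out from such genes was therefore not tested. Mmp9, the gelatinase of neutrophil granules, had 32 and 2 counts and is among the neutrophil markers. The depth of 3 counts leaves the size of the Apln difference open between a ratio of 0.0163 and one of 0.257, while both bounds lie below 0.5. Apln spans 48025146 to 48034853 of chromosome X on the minus strand (GRCm38), and no other annotated gene overlaps it.

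Esm1, which encodes the secreted proteoglycan endocan, was counted 158 times under vehicle and 59 times under AZD7986. Its normalized counts were 143.8 [122.3, 168.1] and 64.8 [49.3, 83.6]. The ratio was 0.451 [0.328, 0.611], a level in the AZD7986 pool that was 54.9% below that of the vehicle pool. A ratio at or below that of Esm1 was found for 2.26% of the 13523 genes. Its interval reaches above 0.5, so counting error alone leaves its side of that threshold undecided, though not its side of 1. The gene lies at 113209659 to 113218098 of chromosome 13 on the plus strand, where Gzmk, a granzyme gene on the other strand, had 1 and 0 counts.

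Angpt2, the vessel-destabilizing ligand of Tie2, was counted 66 times under vehicle and 19 times under AZD7986. In normalized counts, 60.1 [46.5, 76.4] stood against 20.9 [12.6, 32.6]. Its ratio was 0.347 [0.197, 0.586], and 0.858% of the 13523 genes had a ratio as low. Like that of Esm1, the interval of Angpt2 reaches above 0.5 but lies below 1. Angpt2 lies at 18690263 to 18741562 of chromosome 8 on the minus strand, inside Mcph1, a chromosome condensation regulator on the opposite strand. Mcph1 had 25 and 11 counts, a ratio of 0.531 [0.236, 1.12]. No source used here gives the strand setting of the counting, and reads of Mcph1 can therefore not be told apart from those of Angpt2 if strand was ignored.

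Angpt1, the activating ligand of Tie2, had 4 counts under vehicle and 6 under AZD7986, which normalize to 3.64 [0.992, 9.32] and 6.59 [2.42, 14.3]. Its ratio of 1.81 [0.429, 8.72] shows no detectable difference at this depth. The balance between both ligands can be read without any scaling between libraries, as counts of Angpt2 per count of Angpt1. This quotient was 16.5 under vehicle and 3.17 under AZD7986, a ratio of 0.192 [0.0367, 0.923]. It rests on 10 counts of Angpt1 in all, which is why its interval ends close to 1.

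Tek, which encodes the Tie2 receptor, had 64 and 37 counts, a ratio of 0.698 [0.452, 1.06]. Tie1, the related receptor that has no ligand of high affinity and modulates Tie2, had 43 and 23 counts, a ratio of 0.646 [0.371, 1.10]. Intervals of both receptors include 1, and ratios as low as theirs were found for 14.4% and 10.3% of genes. Tie1 per Tek was 0.672 under vehicle and 0.622 under AZD7986, a ratio of 0.925 [0.457, 1.85], so a difference between the receptors was not detectable. Both lie on chromosome 4, Tek at 94739289 to 94874976 on the plus strand and Tie1 at 118471191 to 118490061 on the minus strand. Among other genes of this axis, Ptprb, the endothelial phosphatase that restrains Tie2, had 236 and 159 counts (ratio 0.813 [0.661, 0.998]). Foxo1, a transcription factor that Tie2 signalling inactivates and that induces Angpt2, had 242 and 182 counts (0.908 [0.745, 1.10]).

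Vegfa was counted 608 times under vehicle and 501 times under AZD7986, which gives it the narrowest interval of the 9 genes. Normalized counts were 553.4 [510.3, 599.2] and 550.4 [503.2, 600.8], a ratio of 0.994 [0.882, 1.12]. The Poisson intervals of the pools lay almost fully on top of each other. Its value depends on the scaling: raw counts gave 0.824 [0.731, 0.929], and size factors from nuclear protein-coding genes gave 1.03 [0.915, 1.16]. Kdr, the main signalling receptor of VEGF-A, had 186 and 180 counts, which normalize to 169.3 and 197.7 and give 1.17 [0.946, 1.44]. It was 1 of 2 genes among the 9 with a ratio above 1, and without scaling its ratio was 0.968. Flt1, the second receptor of VEGF-A, had 156 and 104 counts, which normalize to 142.0 and 114.3 and give 0.805 [0.622, 1.04]. With scaling by library total its interval lay below 1 (0.762 [0.589, 0.983]). On GRCm38, Vegfa lies at 46016993 to 46032369 of chromosome 17, and Kdr (75932827 to 75978458) and Flt1 (147561604 to 147726011) lie on chromosome 5, all on the minus strand.

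Relative to Kdr, both Flt1 and Esm1 were lower in the AZD7986 pool, and these quotients are free of the scaling. Flt1 per Kdr was 0.839 under vehicle and 0.578 under AZD7986, a ratio of 0.689 [0.493, 0.962]. Esm1 per Kdr was 0.849 and 0.328, a ratio of 0.386 [0.263, 0.562]. Vegfa per Kdr was 3.27 and 2.78, a ratio of 0.851 [0.667, 1.09] whose interval includes 1. Intervals of 3 of these 5 quotients, counting Angpt2 per Angpt1 and Tie1 per Tek, excluded 1, with no adjustment for their number.

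Other ligands and receptors of these pathways were described from a list of 13 genes, 12 of which had a row and 7 enough counts. Of these 7, 1 was lower and 0 were higher, beside 2.88% and 1.83% of all genes, and the median log2 ratio was -0.30. Flt4, the VEGF receptor 3 of lymphatic and sinusoidal endothelium, was the lower one, with 140 and 52 counts (ratio 0.448 [0.320, 0.620]). Vegfb, a ligand of Flt1, had 138 and 79 counts (0.691 [0.517, 0.918]). Vegfc, a ligand of Flt4, had 43 and 23 counts (0.646 [0.371, 1.10]). The VEGF co-receptors had ratios near 1, with 333 and 296 counts of Nrp1 (1.07 [0.914, 1.26]) and 63 and 52 counts of Nrp2 (0.996 [0.676, 1.46]). Pgf, the placental growth factor that binds Flt1, had 1 count in each pool.

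**Figure D2:**
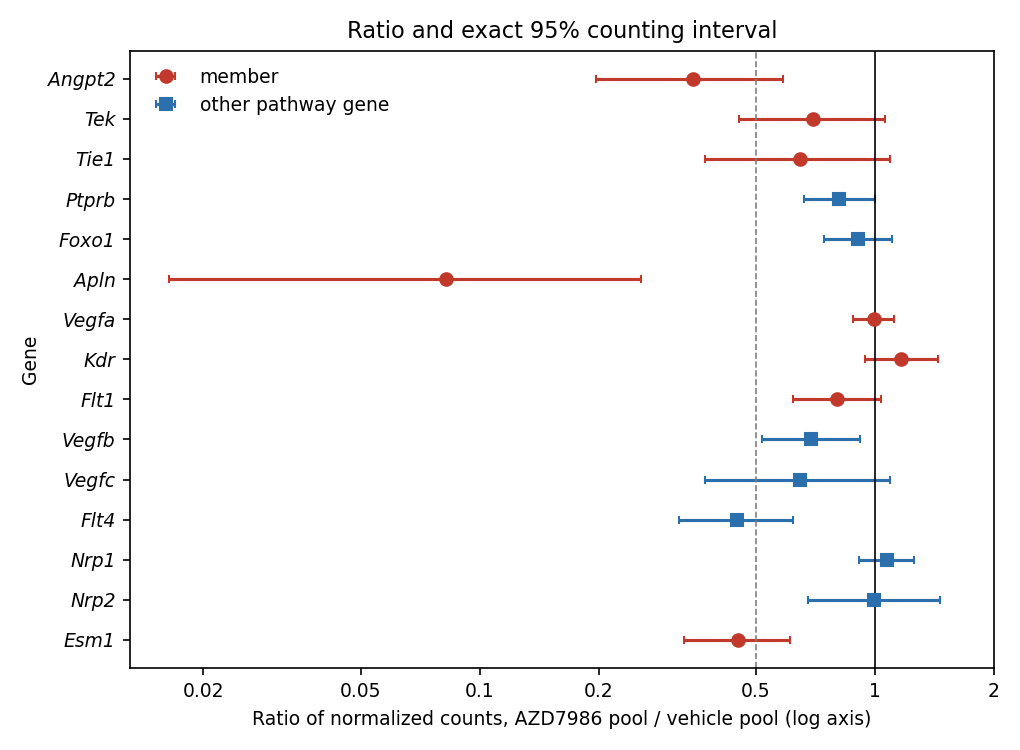
Ratio of normalized counts, AZD7986 pool over vehicle pool (log axis), for the 8 chosen genes (red circles) and the 7 other pathway genes (blue squares) that reached a sum of 20 counts. Bars are exact 95% counting intervals, the solid line marks 1 and the dashed line 0.5. Apln lies farthest to the left at 0.0823, Angpt2, Flt4 and Esm1 lie left of the dashed line, and Vegfa and Nrp2 lie on the solid line.

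The genes were also set against markers of endothelium, as counts per endothelial marker count. All 20 pan-endothelial markers were counted, none at 0 in either pool, and together they had 2871 counts under vehicle and 1872 under AZD7986. Their summed ratio was 0.787 [0.742, 0.834] and their median log2 ratio -0.27, with 0 of 18 well counted markers lower or higher by the rule. Intervals of 5 of these 18 lay below 1, beside 15.1% of all genes. The adhesion molecules Cdh5 (309 and 133 counts, ratio 0.519 [0.421, 0.639]) and Pecam1 (277 and 134 counts, 0.584 [0.471, 0.720]) were among them, whereas endoglin (Eng, 454 and 329 counts) had a ratio of 0.875 [0.757, 1.01]. Against this background, Angpt2 had 23.0 counts per 1000 endothelial marker counts under vehicle and 10.1 under AZD7986, a ratio of 0.442 [0.249, 0.748]. Esm1 had 55.0 and 31.5 (0.573 [0.415, 0.782]) and Apln 15.3 and 1.60 (0.105 [0.0207, 0.327]). All 3 intervals lay below 1 against the summed markers, a total that does not carry the spread between its members. Single markers reached ratios near that of Esm1 (0.451 [0.328, 0.611]), as Erg, an endothelial transcription factor, had 22 and 8 counts (0.439 [0.169, 1.02]), and the intervals of Cdh5 and Pecam1 overlap those of Esm1 and Angpt2. The interval of Apln (0.0163 to 0.257) overlaps that of Erg. Overlap of intervals is no test of a difference. Whether any of the 3 genes was lower than each single marker beyond counting error was not tested.

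Receptors and Vegfa lay elsewhere on this scale. Tek (0.887 [0.572, 1.36]), Tie1 (0.820 [0.470, 1.40]) and Flt1 (1.02 [0.784, 1.33]) had intervals that include 1. Kdr had 64.8 and 96.2 counts per 1000 marker counts, a ratio of 1.48 [1.19, 1.85], and Vegfa 211.8 and 267.6 (1.26 [1.11, 1.44]). The Vegfa quotient is no level within endothelium, since hepatocytes are a main source of this gene. Its own ratio was 0.994, beside 0.787 for the summed markers. Both quotients, of Kdr and of Vegfa, depend on the markers taken as reference. Set against the median of the sinusoidal markers in place of the pan-endothelial ones, Kdr differed by 0.23 on the log2 scale (0.49 against the pan-endothelial median) and Vegfa by -0.01 (0.26 against the pan-endothelial median).

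**Figure D3:**
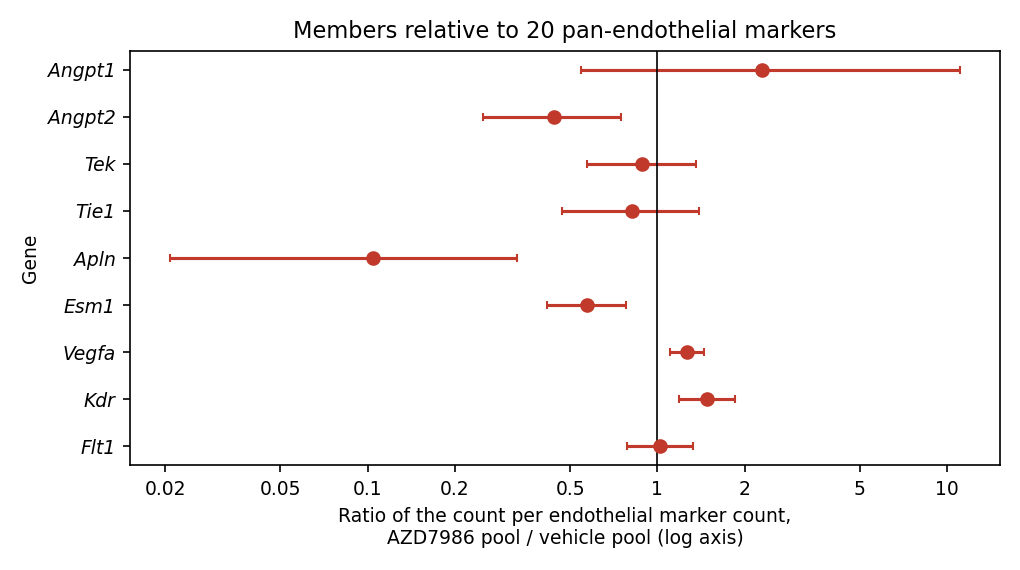
Count of each gene per summed count of 20 pan-endothelial markers, as the ratio of the AZD7986 pool over the vehicle pool (log axis) with its exact 95% counting interval. Angpt2, Apln and Esm1 lie left of 1 with their whole interval, Vegfa and Kdr lie right of it, and Angpt1, Tek, Tie1 and Flt1 have intervals that include 1.

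Markers of other cells differed between the pools as well. The 8 neutrophil markers had summed counts of 993 and 312 (ratio 0.379 [0.333, 0.431]), with 5 of 6 well counted ones lower, beside 2.88% of all genes. S100a8 (472 and 145 counts) and S100a9 (381 and 128 counts) were among the 5, and Ly6g was at 0 under vehicle. Mmp9 is 1 of these 5 and, like Angpt2, was picked out by the study partly on these libraries. The 4 platelet markers had 221 and 91 counts (0.497 [0.385, 0.637]), most of them from Pf4, the platelet chemokine, which was lower (178 and 61 counts, 0.414 [0.304, 0.556]). Of the other platelet markers, Ppbp had 18 and 6 counts, Itga2b 23 and 22 (1.15 [0.614, 2.17]) and Gp9 2 and 2, so the summed value is largely that of 1 gene. Platelets can carry Angpt1 and Vegfa. The 5 cholangiocyte markers had 263 and 98 counts (0.450 [0.353, 0.569]), most of them from the transcription factor Sox9 (211 and 74 counts, 0.423 [0.320, 0.554]). Epcam had 20 and 5 counts and Krt19 17 and 5, whereas Krt7 had 14 and 14 (1.21 [0.533, 2.73]) and Cftr 1 and 0. Stellate and mural markers had 3436 and 2557 counts over 14 genes (0.898 [0.853, 0.946]), 10 markers of monocytes, macrophages and Kupffer cells had 5114 and 3902 (0.921 [0.883, 0.960]), and 8 hepatocyte markers had a summed ratio of 0.976 [0.972, 0.979]. The 6 lymphoid markers had 17 counts in each pool, with Cd3e at 0 under AZD7986 and Cd79a at 0 under vehicle. The part of these cells in the values of Apln, Angpt2 and Esm1 was not tested.

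Genes that mark or follow endothelial sprouting were lower in part. Of 11 well counted tip cell genes other than the chosen ones, 2 were lower and 0 higher, beside 2.88% and 1.83% of all genes. Their median log2 ratio was -0.58. The 2 lower ones were Cxcr4, a chemokine receptor that leukocytes also carry (47 and 14 counts, ratio 0.360 [0.183, 0.664]), and Fscn1, which bundles actin in protrusions (73 and 30 counts, 0.496 [0.313, 0.768]). Plvap, which forms the diaphragms of endothelial pores, was the best counted (348 and 193 counts, 0.669 [0.558, 0.800]). Dll4, the Notch ligand of tip cells, had 38 and 33 counts (1.05 [0.637, 1.72]), unlike Apln and Esm1. Of 4 well counted genes of Notch signalling 0 were lower by the rule (median log2 ratio -0.65), and the Notch target Hes1 had 218 and 130 counts (0.720 [0.575, 0.898]).

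Genes that VEGF induces in endothelial cells had a median log2 ratio of -0.46, with 0 of 6 well counted ones lower or higher. Rcan1, a calcineurin regulator on this list, had 195 and 167 counts (ratio 1.03 [0.836, 1.28]), while the protease Adamts1 had 101 and 51 (0.609 [0.426, 0.862]). Targets of hypoxia-inducible factors, to which Vegfa belongs, had a median of -0.48, with 2 of 15 lower and 0 higher. By the same rule 2.88% of all genes were lower and 1.83% higher. Loxl2, which cross-links collagen, was among the lower targets (70 and 22 counts, 0.379 [0.224, 0.620]). The glucose transporter Slc2a1 had 142 and 64 counts (0.544 [0.398, 0.736]), and Pdk1, which restrains pyruvate oxidation, had 170 and 204 (1.45 [1.18, 1.79]). Of these 15 genes 11 had a ratio below 1 and 4 above it, beside 6984 and 6539 of all 13523 genes. Intervals of 7 lay below 1 and that of 1 above it, beside 15.1% and 17.9% of all genes. Vegfa, at 0.994, was not counted among these 15.

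**Figure D4:**
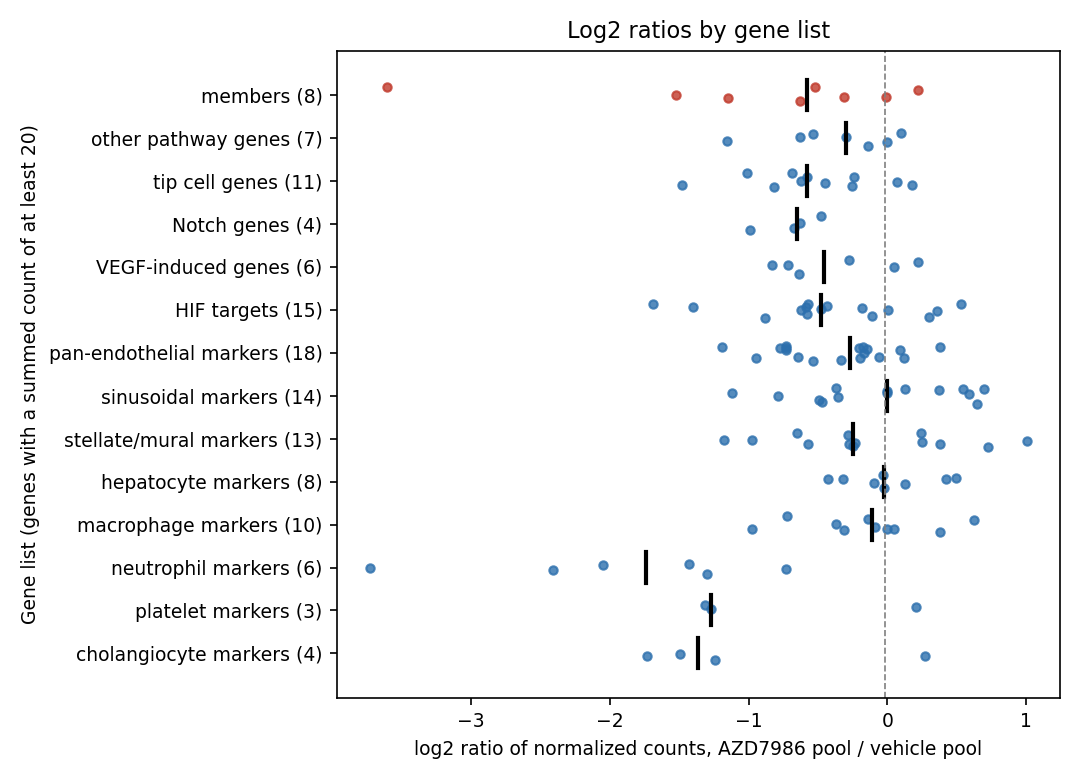
Log2 ratio of normalized counts, AZD7986 pool over vehicle pool, of each gene with a summed count of at least 20 (points, red for the chosen genes), by gene list with the number of genes in brackets. Black bars are list medians and the dashed line is the median of all genes at -0.02. The chosen genes spread from -3.60 to 0.22 around a median of -0.58, sinusoidal and hepatocyte medians lie near 0, and neutrophil markers have the lowest median at -1.74.

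Promoter sequences from RefSeq (GRCm38.p6) were found for 7 of the 9 genes, Tek, Tie1, Apln, Esm1, Vegfa, Kdr and Flt1, with 2 windows for Vegfa, and entries for Angpt1 and Angpt2 were not used here. Shown are the 250 bases before the start of Apln and Esm1, both lower, and of Kdr, which was neither lower nor higher. The ratio of Kdr was 1.17, with an interval that includes 1 (0.946 to 1.44). The letters around genes with different values can so be set side by side. Capitals mark every match, on either strand, to the letters searched: GGGCGG (the GC box of SP and KLF factors, CCGCCC on the other strand), CAGGAA and CCGGAA (ETS factors of endothelium, TTCCTG and TTCCGG on the other strand), and ACGTG and GCGTG (hypoxia-inducible factors). ACGTG and GCGTG differ in their first letter, and CAGGAA and CCGGAA in their second. The windows lie at chrX:48034854-48035103 (minus strand), chr13:113209409-113209658 (plus strand) and chr5:75978456-75978705 (minus strand).
Apln: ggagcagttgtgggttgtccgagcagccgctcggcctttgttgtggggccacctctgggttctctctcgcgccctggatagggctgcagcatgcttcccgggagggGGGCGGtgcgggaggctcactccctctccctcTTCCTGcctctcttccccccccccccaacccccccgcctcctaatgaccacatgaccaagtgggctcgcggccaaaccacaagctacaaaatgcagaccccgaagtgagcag
Esm1: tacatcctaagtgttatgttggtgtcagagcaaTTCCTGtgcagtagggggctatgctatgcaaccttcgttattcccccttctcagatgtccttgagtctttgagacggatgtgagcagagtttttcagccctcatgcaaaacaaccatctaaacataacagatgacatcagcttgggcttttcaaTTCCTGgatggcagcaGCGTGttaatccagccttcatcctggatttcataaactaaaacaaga
Kdr: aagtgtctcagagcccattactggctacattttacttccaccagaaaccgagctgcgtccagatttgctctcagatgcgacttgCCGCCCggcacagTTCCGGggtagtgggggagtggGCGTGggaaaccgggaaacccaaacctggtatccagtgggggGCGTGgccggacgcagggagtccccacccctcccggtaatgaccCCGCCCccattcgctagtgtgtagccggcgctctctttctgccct

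In the whole windows, which run 250 bases before and 50 after the start, CAGGAA was found in 5 of 8 member windows, against 30.6% of 32851 mouse promoters. It stood 112 bases before the start of Apln and 217 and 63 bases before that of Esm1, and it was also found in Tek, Tie1 and 1 window of Vegfa. Kdr held CCGGAA in its place, as did 14.9% of all promoters. GGGCGG was found in 5 of 8 windows (35.7% of all promoters) and GCGTG in 4 of 8 (32.4%), Esm1 with 1 copy and Kdr with 2. ACGTG was found in 1 window (19.6% of all promoters), the Vegfa window at chr17:46025114-46025413, which lies inside the gene. This inner window was also 1 of those with GCGTG and 1 of those with GGGCGG. The Vegfa window over the annotated start (chr17:46032328-46032627) held no match to the letters of hypoxia-inducible factors. The TATA box TATAAA was found in 1 window, of Flt1 (13.6%), 31 bases before its start. GTAAACA of FOX factors (3.65% of all promoters) and TGANTCA of AP-1 (7.81%) were in 0 of 8. Apln, with a GC content of 64.0%, and Esm1, with 46.3%, lay on either side of the median of all promoters (52.7%). A match describes the letters of these windows and no binding.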

How the data were processed

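Pooled hepatic RNA of 2 groups (APAP plus vehicle, APAP plus AZD7986, 8 mice each) was analysed by massive analysis of cDNA ends (MACE), a 3′mRNA sequencing method. The authors removed duplicates by unique molecular identifiers, trimmed reads with cutadapt, clipped poly(A) tails, mapped to mm10 and deposited the raw count per gene from HTSeq. For aligner, annotation release, strand setting and tool versions, the sources used here give nothing. Groups were taken from the sample titles. A further 6 columns of per-sample values have names that match neither sample and were left out. Deposited columns of scaled values were not used either.

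Size factors were computed with DESeq2 1.42.0 (median of ratios), and TMM with edgeR 4.0.16, in R 4.3.3. Ratios, exact (Clopper-Pearson) intervals and conditional odds ratios of quotients were computed in Python 3.11.15 with scipy 1.17.1, numpy 2.4.6 and pandas 2.3.3. Plots were drawn in matplotlib 3.10.9. Intervals were tested on simulated Poisson counts with known ratios and no variation between mice, which covers counting error only. Entries without a symbol hold 3.70% and 3.71% of counts and were kept. With 1 library per group there is no p-value. The ratio threshold of 0.5 follows the downregulation threshold the study applied to these pools. Alternatives were other scalings, pseudocounts of 0.5 and 1, other count minimums (10, 50, none), a stricter interval, the fold alone, and other endothelial references. Positions come from GENCODE M21 (GRCm38, the build mm10), which held 23210 of the 24377 identifiers.

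The members and the 14 other gene lists were chosen with earlier results of these data known. Of the 161 listed genes 157 had a row, Tf under the symbol Trf. Named are all members, in each other list the 3 best counted genes and the 3 with the largest log2 ratio whose interval excluded 1, and genes overlapping a member. Some of these are summed up by their list or not reported here, and Dll4, Nrp2, Vegfc, Pgf, Ly6g, Cftr, Cd3e, Cd79a, Erg, Gp9, Krt19, Oit3 and Gpr182 were added for their roles or counts after their values were seen.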

Additional observations from a re-analysis of the deposited data

How the results depend on the processing

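Apln, Angpt2 and Esm1 were counted as lower, and 0 of the 9 genes as higher, under TMM, library-total, protein-coding and no scaling, with a stricter interval and by the fold alone. Genes with an interval below 1 numbered 3 under the main scaling, TMM and protein-coding scaling, 4 by library total (Flt1 added) and 7 without scaling (Tek, Tie1 and Vegfa added as well). Raw counts shift every log2 ratio by 0.27 to lower values, which moved the ratio of Vegfa to 0.824, the median log2 ratio of the chosen genes to -0.85 and that of the other pathway genes to -0.57. Without a minimum count the latter was -0.073. The neutrophil median of -1.74 became -1.37 without a minimum, -1.43 with a minimum of 10 and -1.30 with one of 50. Against sinusoidal markers the log2 difference of Vegfa was -0.0066. Over all genes, 390 lower and 248 higher became 942 and 95 without scaling, 528 and 180 by library total, 317 and 297 with protein-coding scaling, and 147 and 111 with a stricter interval. The hepatocyte median, -0.03, was 0.03 with protein-coding scaling. No paired analysis was possible because each group has 1 library. For the same reason no replicate could be left out. Counts of 3 (Apln) and 4 to 6 (Angpt1) limit the size of these ratios most.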

Other observations

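Sinusoidal endothelial markers were split between the pools. Of 14 well counted markers, 5 had an interval below 1 and 4 above 1, beside 15.1% and 17.9% of all genes, and the median log2 ratio was -0.0014, with single markers between -1.12 and 0.70. On the lower side stood Gata4, a transcription factor of sinusoidal identity (63 and 24 counts, ratio 0.460 [0.275, 0.746]), the hyaluronan receptor Lyve1 (165 and 79 counts, 0.578 [0.436, 0.760]) and the transcription factor Maf (614 and 361 counts, 0.710 [0.621, 0.809]). On the higher side stood the lectin Clec4g (211 and 255 counts, 1.46 [1.21, 1.76]) and Rspo3, a Wnt amplifier of central vein endothelium (35 and 47 counts, 1.62 [1.02, 2.59]). Oit3 (115 and 143 counts, interval 1.17 to 1.94) and Gpr182 (67 and 87 counts, interval 1.13 to 2.19), which complete that side, were named after their values were seen.

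Stellate and mural markers also went both ways, though more often down. Of 13 well counted ones, 6 had an interval below 1 and 2 above 1, beside 15.1% and 17.9% of all genes. By the rule, 1 was lower and 1 higher, beside 2.88% and 1.83% of all genes. Hgf, the hepatocyte growth factor, had 30 and 11 counts (0.443 [0.200, 0.908]), and the collectin Colec11 had 116 and 193 (2.01 [1.59, 2.55]). Acta2, the actin of contractile mural cells, had 339 and 143 counts (0.509 [0.416, 0.621]), while Rgs5, a pericyte marker, had 291 and 198 (0.821 [0.682, 0.987]).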
